A study of Mus musculus with 190 samples.

Results

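Proteasome genes were followed through whole blood of NC/Nga mice, a strain used as a model of atopic dermatitis because its skin becomes inflamed under conventional housing. The members were the protein-coding genes whose symbol starts with Psma, Psmb, Psmc, Psmd, Psme, Psmf or Psmg followed by a number, which gave 51 of the 55414 genes in the table. Of these, 49 are proteasome subunits, activators, inhibitors or assembly chaperones. The other two match by name only: Psmc3ip is a recombination factor, and Psme3ip1 is named for its interaction with Psme3. After a filter on low counts 50 members were tested. The member left out, Psmb11, is the catalytic subunit of the thymus form of the proteasome and had a count of 0 in all 190 libraries.

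All mice were male and wild type, and the labels give no age. The conventionally housed mice formed 9 cohorts of 10. Cohorts 1 to 9 were first sampled on days 2, 5, 9, 12, 16, 19, 23, 26 and 30 in that order, and each was bled a second time, the odd-numbered cohorts on day 44 and the even-numbered on day 40. A single specific-pathogen-free (SPF) cohort of 5 mice was sampled on days 16 and 44. Each library carries a dermatitis score, which was 0 in the SPF cohort. Among first-sampling conventional libraries 58 had score 0, 9 had 0.5, 12 had 1, 10 had 2 and 1 had 3. At the second sampling 7 had score 0, 5 had 0.5, 11 had 1, 27 had 2, 39 had 3 and 1 had 4. The study asked how the blood transcriptome differs before and after onset and with severity. Housing is set by 1 SPF cohort and the first-sampling day by cohort, so effects of housing or day cannot be told apart from those of the cohort.

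The proteasome is the protease complex that degrades ubiquitin-tagged proteins. Its 20S core is a barrel of outer alpha rings and inner beta rings, and the proteolytic sites sit on Psmb5, Psmb6 and Psmb7. In cells of the immune system, and elsewhere after interferon, Psmb8, Psmb9 and Psmb10 take the places of Psmb5, Psmb6 and Psmb7 and form the immunoproteasome, which is known for making peptides for MHC class I. The 19S particle recognises and unfolds substrates with the Psmc ATPases and the Psmd non-ATPase subunits. Psme1 and Psme2 (PA28 alpha and beta), Psme3 (PA28 gamma) and Psme4 (PA200) are alternative caps, Psmf1 (PI31) was first described as an inhibitor, and Psmg1 to Psmg4 assemble the 20S core.

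The RefSeq promoters (GRCm38.p6, the 250 bases before the gene start, written along the gene's strand) are shown for the catalytic genes whose window held a searched motif, because the contrast between both catalytic sets is followed below. Capitals mark the motif.
Psmb8, chr17:34197945-34198194, plus strand: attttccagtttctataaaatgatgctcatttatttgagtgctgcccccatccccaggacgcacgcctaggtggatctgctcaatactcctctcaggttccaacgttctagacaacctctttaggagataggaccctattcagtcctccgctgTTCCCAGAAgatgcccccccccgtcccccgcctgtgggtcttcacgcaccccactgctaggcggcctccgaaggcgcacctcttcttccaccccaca
Psmb5, chr14:54617996-54618245, minus strand: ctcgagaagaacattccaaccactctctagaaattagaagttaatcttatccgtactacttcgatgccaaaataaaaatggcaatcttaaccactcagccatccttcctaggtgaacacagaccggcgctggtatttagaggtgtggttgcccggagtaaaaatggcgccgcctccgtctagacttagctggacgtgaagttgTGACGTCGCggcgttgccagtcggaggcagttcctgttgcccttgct
Psmb6, chr11:70525107-70525356, plus strand: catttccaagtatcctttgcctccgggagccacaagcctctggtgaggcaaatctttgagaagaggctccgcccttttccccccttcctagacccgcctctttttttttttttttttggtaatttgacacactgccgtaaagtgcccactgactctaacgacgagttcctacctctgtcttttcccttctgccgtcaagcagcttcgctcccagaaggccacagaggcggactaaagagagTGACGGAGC
The Psmb8 window held the STAT site core, TTCNNNGAA, 97 bases before the start. The windows of Psmb5 and Psmb6 held the antioxidant response element core, TGACNNNGC, 47 and 9 bases before it. Both strands were searched in 47 member windows of 43 genes and in 32851 windows of all genes. The STAT core was in 2 member windows (Psmb8, Psmg1) and in 7.0% of all windows, and the antioxidant core in 5 (Psmb5, Psmb6, Psmc6, Psmd9, Psmd12) and 10.2%. The interferon response element core, GAAANNGAAA, was in 3 (Psmb3, Psmd4, Psmd9) and 3.0%. The windows of Psmb9 and Psmb10 held none of these letters. Psmb7 had no window and was not searched. The motifs do not overlap each other in the windows printed, and a match is a description of the letters only.

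Libraries held 21444129 to 71967299 counts (median 36448181), and all members together took 0.11% to 0.332% of a library. Globin genes took a median of 3.58% and mitochondrial rRNA 6.92% in cohorts 1 to 4, against 6.84% and 14.7% in cohort 5, 7.83% and 15.39% in cohorts 6 to 9, and 3.59% and 7.38% in the SPF cohort, so results are also given for cohorts 1 to 4 alone and for cohorts 6 to 9 alone where these bear on them. A pair of libraries stood apart: replicate 4 of cohort 1 on day 44 (score 3) and replicate 7 of cohort 9 on day 44 (score 2). They had 2078 and 2656 CPM of Psme4, against at most 1346 in the other conventional libraries. CPM are counts divided by library sizes that edgeR's TMM factors scale, brought to a common size, so they are not shares of the raw total. In length-corrected TPM Psme4 of the pair was at 29.06 and 29.45, against a median of 7.142 over all libraries. Replicate 3 of the SPF cohort on day 16 had 45.3% of its counts in globin genes, against 2.09% to 4.52% in the other 4 SPF libraries of that day, and the lowest share of member counts of all libraries (0.11%). Most markers of blood cells were detected: no neutrophil, B cell, T cell, monocyte, erythroid or platelet marker had a median of 0 in a group compared here. Of 6 eosinophil markers listed, 5 passed the filter on low counts. Among these, 1 had a median of 0 in SPF mice on day 16, and 1 in the single library with score 4 of the second sampling.

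In TPM, the length-corrected unit that allows levels of different genes to be compared, Psme3 stood far above the other members with a median of 229.6 over the 190 libraries (range 120.5 to 364.8). The median of Psmd4, the 19S ubiquitin receptor, was 29.77 TPM. The other members had medians under 8 TPM, among them Psme2 (7.823), Psmb8 (7.515), Psme4 (7.142), Psma6 (6.578), Psmf1 (6.549) and Psme1 (6.118). Medians ran from 2.335 to 6.578 TPM in the alpha ring, from 2.165 to 5.111 TPM in the non-catalytic beta subunits and from 0.926 to 3.797 TPM in the 19S ATPases. The 20S assembly chaperones were lower, at 0.368 to 1.158 TPM, and Psma8, the testis alpha subunit, had a median of 0.052 TPM. Within the catalytic sets the order was Psmb8, Psmb6 (4.34), Psmb10 (3.092), Psmb9 (2.297), Psmb7 (2.132) and Psmb5 (1.752). Psme2b, a near copy of Psme2, may share reads with it. In the table's coordinates (GRCm39) Psmb9 (chr17:34400961-34406738, minus strand) and Psmb8 (chr17:34416695-34420428, plus strand) lie close together in the MHC region, while Psmb10 is at chr8:106662367-106665076, Psmb5 at chr14:54851576-54855479, Psmb6 at chr11:70416193-70418684, Psmb7 at chr2:38478048-38534099 and Psme4 at chr11:30721726-30830361.

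From the first to the second sampling the proteasome genes did not move as a block. The caps Psme4 and Psme3, the inhibitor Psmf1 and a set of 19S subunits were higher at the second sampling, and 3 of 4 chaperones of the 20S core, several core subunits and both Psmb8 and Psmb10 were lower. With edgeR's quasi-likelihood test over 180 conventional libraries, cohort as a covariate and Benjamini-Hochberg adjustment over 18192 genes, 20 members rose and 15 fell. Of all genes tested, 31% were higher and 31.2% lower, so the members' shares do not stand far from the background. The median log2 change was 0.02 over members and -0.02 over all genes. The direction of small changes depended on the scaling and on single libraries. With DESeq2's size factors the split was 15 higher and 18 lower, and without the pair of libraries that stood apart 12 higher and 22 lower. Cohorts 1 to 4 alone gave 13 and 20, and cohorts 6 to 9 alone 12 and 3. The shares of all genes called in these and later refits are not given here. Counts in refits are therefore not read as particular to the members.

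**Figure D1:**
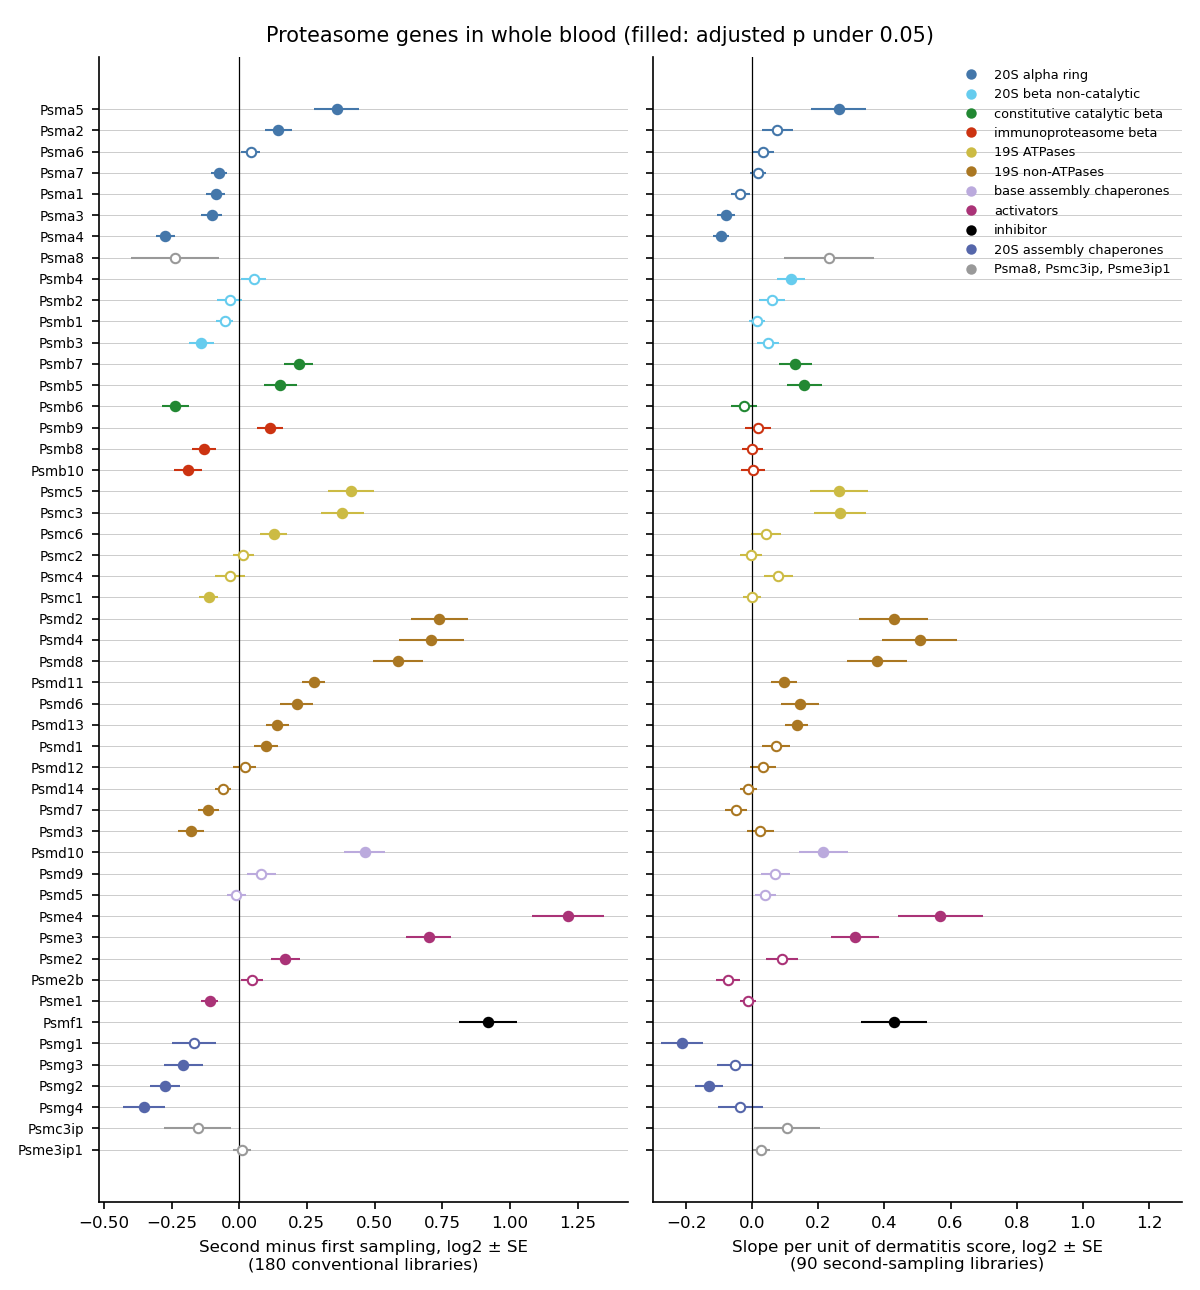
Log2 change with its standard error for each of the 50 tested members, second minus first sampling in 180 conventional libraries (left), and log2 slope per unit of dermatitis score in 90 second-sampling libraries (right). Colours give the subunit class and filled points an adjusted p under 0.05; Psme4 lies farthest to the right in both panels (1.21 and 0.57), and all 4 Psmg chaperones lie left of 0 in the left panel.

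Psme4 had a lowest value of 76.75, a median of 185.6 and a highest value of 2656 CPM at the second sampling, against 71.12, 126.98 and 307.1 CPM at the first. The groups overlapped at the low end, and the high values were all of the second sampling. Its log2 change was 1.21 ± 0.13 (SE, 180 libraries; fold 2.319; edgeR adjusted p 3.5e-15), and 1.00 ± 0.12 without the 2 libraries that stood apart. Psme3, the nuclear PA28 cap, had 440.8, 1101 and 3546 CPM at the second sampling, against 491.8, 733.9 and 1739 CPM at the first, a log2 change of 0.70 ± 0.08 (adjusted p 2.2e-13). In CPM the lowest second-sampling libraries lay below all first-sampling ones, so the spread widened on both sides. Psme3 of the 2 libraries that stood apart was at 3546 and 3322 CPM but at 315.8 and 259.4 TPM. Its TPM median over all 190 libraries was 229.6, so how far these libraries stand out depends on the unit. Psmf1 had 18.94, 45.21 and 231.3 CPM at the second sampling, against 18.68, 28.78 and 71.39 CPM at the first, a log2 change of 0.92 ± 0.11 (adjusted p 9e-14). Of the interferon-inducible caps, Psme2 had 10.26, 17.28 and 61.88 CPM at the second sampling, against 10.15, 17.07 and 25.28 CPM at the first. Its change of 0.17 passed the test (adjusted p 0.0034), but without the 2 libraries it was 0.06 (adjusted p 0.22). Psme1 had 10.39, 16.35 and 27.09 CPM at the second sampling, against 9.765, 17.89 and 24.46 CPM at the first, and fell by 0.11 on the log2 scale (adjusted p 0.0014).

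Among the 11 non-ATPase subunits of the 19S particle 7 rose and 2 fell, and among the 6 ATPases 3 rose and 1 fell. Of all genes 31% rose and 31.2% fell, and with so few genes the class counts are not read as particular to a class. Psmd2, a scaffold of the 19S base, had 19.87, 36.46 and 386.8 CPM (lowest, median, highest) at the second sampling, against 22.47, 31.46 and 49.35 CPM at the first. Most libraries of both samplings overlapped, and a tail of second-sampling libraries lay above. The log2 change was 0.74 ± 0.10 (adjusted p 3e-10). Psmd4 had 47.54, 132.96 and 1074 CPM at the second sampling, against 52.1, 110.1 and 242.1 CPM at the first, with a log2 change of 0.71 ± 0.12 (adjusted p 9.9e-08). Psmd8 had a log2 change of 0.59, Psmc5 of 0.41 and Psmc3 of 0.38; these belong to the lid and to the ATPase ring. The base chaperone Psmd10 (gankyrin) rose by 0.46.

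The core showed smaller changes in both directions. In the alpha ring Psma5 (0.36) and Psma2 (0.14) rose and 4 of 7 fell, where 31% of all genes rose and 31.2% fell. Psma4 had 8.565, 12.49 and 18.35 CPM at the second sampling, against 10.48, 15.14 and 20.35 CPM at the first, and fell by 0.27 on the log2 scale (adjusted p 1.6e-12). The whole range of Psma4 was shifted down, with wide overlap. Among the 4 chaperones of the 20S core Psmg4 (-0.35), Psmg2 (-0.27) and Psmg3 (-0.21) fell.

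Of the constitutive catalytic genes, Psmb7 had 6.854, 9.833 and 41.58 CPM at the second sampling, against 6.79, 9.511 and 12.26 CPM at the first, a log2 change of 0.22 ± 0.05 (adjusted p 0.00013). Psmb5 had 2.002, 3.581 and 14.32 CPM at the second sampling, against 1.62, 3.528 and 5.643 CPM at the first, a log2 change of 0.15 ± 0.06 (adjusted p 0.021). Medians of both genes differed little, and in CPM the highest second-sampling libraries lay far above the first-sampling range. In TPM the 2 libraries that stood apart, cohort 1 first, had 3.465 and 2.84 of Psmb7, against a median of 2.132 over all libraries. For Psmb5 they had 2.21 and 1.765 TPM, against a median of 1.752. Without the 2 libraries that stood apart Psmb7 was at 0.09 (adjusted p 0.023) and Psmb5 at 0.04 (adjusted p 0.52). Psmb6 had 3.152, 7.705 and 14.001 CPM at the second sampling, against 5.221, 8.751 and 15.21 CPM at the first, and fell by 0.24 on the log2 scale (adjusted p 1.5e-05).

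Of the immunoproteasome genes, Psmb8 had 13.78, 23.25 and 44.74 CPM at the second sampling, against 14.67, 25.11 and 49.29 CPM at the first, and fell by 0.13 on the log2 scale (SE 0.04, adjusted p 0.0071). Psmb10 had 2.787, 5.483 and 8.213 CPM at the second sampling, against 2.689, 5.693 and 12.75 CPM at the first, and fell by 0.19 (adjusted p 0.00083). Psmb9 had 4.938, 9.852 and 31.39 CPM at the second sampling, against 4.129, 9.01 and 17.26 CPM at the first, with a log2 change of 0.11 ± 0.05 (adjusted p 0.036). The groups of all 3 genes overlapped nearly fully. In cohorts 6 to 9 alone none of the 3 passed the test (Psmb8 -0.05, adjusted p 0.67; Psmb9 0.02, adjusted p 0.86; Psmb10 -0.15, adjusted p 0.2). Psmb9 also lost its call without the 2 libraries (0.09, adjusted p 0.12) and with DESeq2 (0.08, adjusted p 0.14).

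Markers of blood cells moved with these changes. All 10 erythroid genes rose; their summed level had a lowest value of 25927, a median of 68489 and a highest value of 245220 CPM at the second sampling, against 29137, 45243 and 88055 CPM at the first. All 10 neutrophil genes rose, with a median summed level of 4699 CPM (range 368.8 to 25302) at the second sampling, against 1474 CPM (279.8 to 18945) at the first. All 10 B cell genes fell, with a median of 342 CPM (135.7 to 708.3) against 561.8 CPM (153.7 to 823.5), and 7 of 8 T cell genes fell. In bulk blood, fewer cells of a type and less RNA per cell cannot be told apart. With the means of the erythroid, neutrophil and B cell lists as covariates, 1 of 50 members was called, Psmd4, and it was lower (-0.25, adjusted p 9.8e-05). The share of all genes called in that fit is not given here. Psme4 was at 0.06 ± 0.06 (adjusted p 0.6) in that fit. The part of these cell types in the changes was otherwise not tested.

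**Figure D2:**
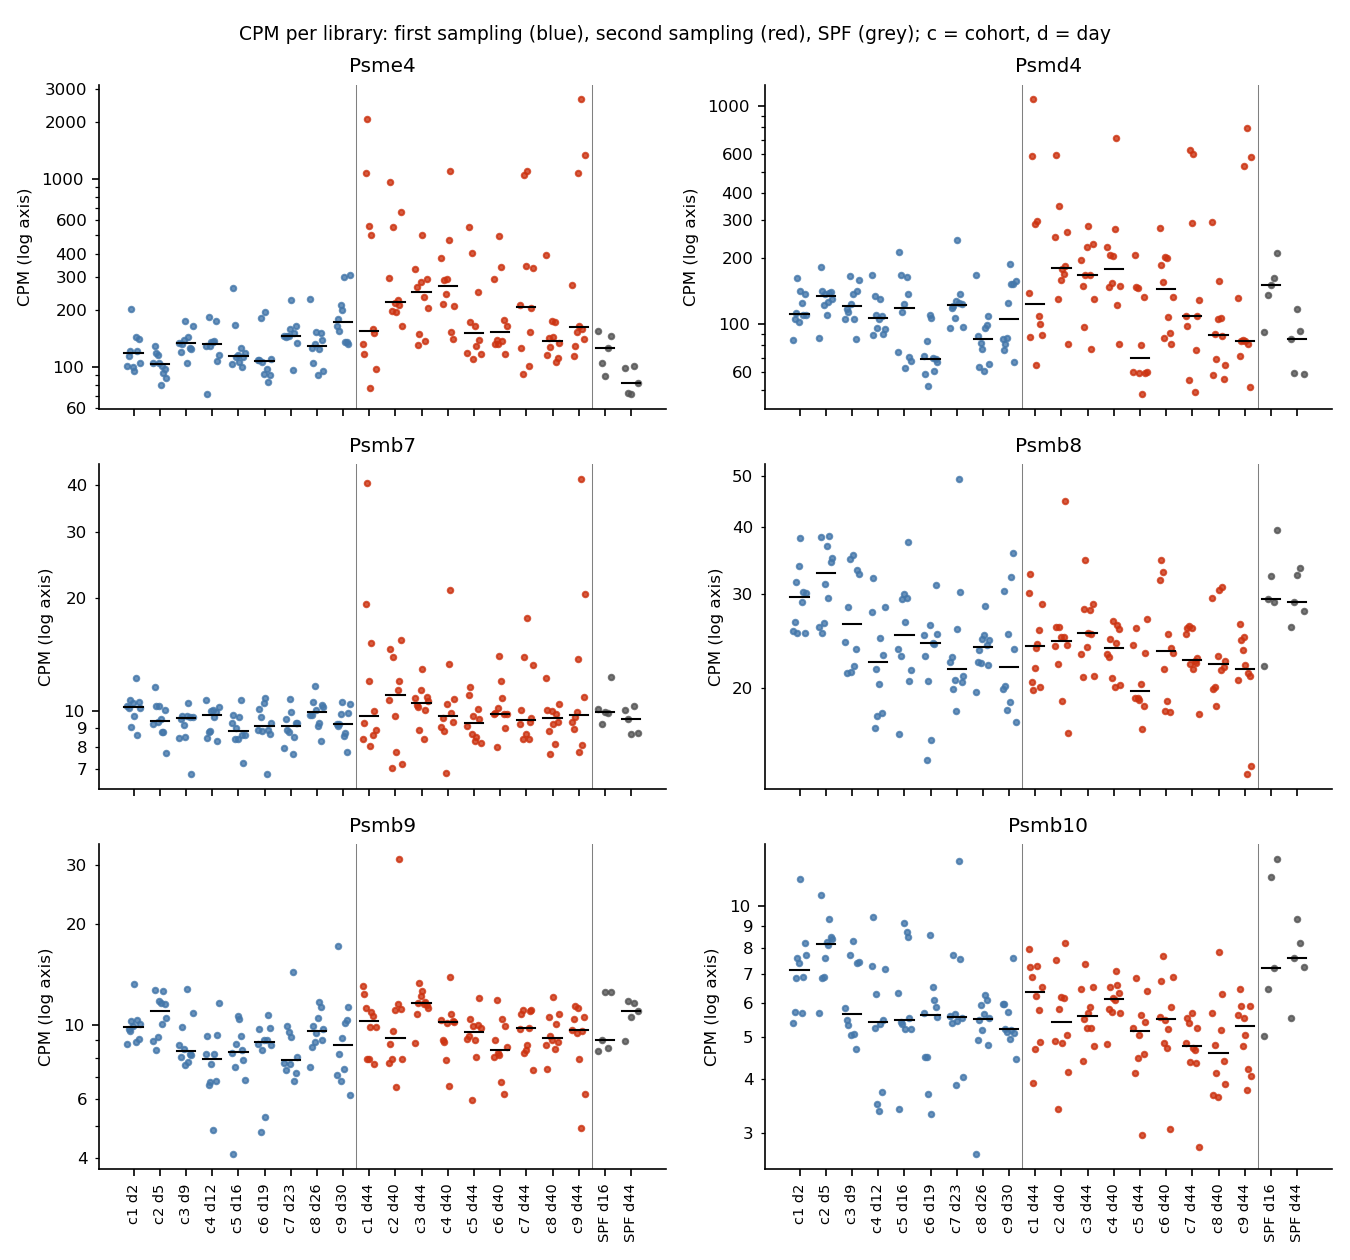
CPM per library (log axes) of 6 genes in the 20 groups: first-sampling conventional cohorts by day (blue), their second sampling (red) and the SPF cohort (grey); lines are group medians. Psme4, Psmd4 and Psmb7 show tails of high second-sampling libraries, up to 2656, 1074 and 41.58 CPM, which Psmb8, Psmb9 and Psmb10 do not share: the highest red points of Psmb8 and Psmb9 (44.74 and 31.39 CPM) belong to another library, of cohort 2.

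The spread between libraries differed between genes in the same way. The SD of log2 CPM of Psme4 was 1.084 at the second and 0.4076 at the first sampling, and its highest second-sampling library was 34.61 times its lowest. Psmd4 (1.024 and 0.4621), Psmd2 (0.8817 and 0.2619) and Psmf1 (0.873 and 0.3922) were alike in this. The SD of Psmb8 was 0.2703 at the second and 0.3317 at the first sampling, and that of the alpha subunit Psma7 was 0.1973 and 0.1828. In the 2 libraries that stood apart, replicate 4 of cohort 1 and replicate 7 of cohort 9, Psmb7 had 40.64 and 41.58 CPM and Psmb5 14.32 and 12.74 CPM, while Psmb9 had 7.921 and 4.938 CPM and Psmb10 3.92 and 3.78 CPM.

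Within the second sampling the caps Psme4 and Psme3 and 6 of 11 non-ATPases were higher at higher dermatitis scores, while the slopes of the immunoproteasome genes lay near 0 and did not pass the test. Over 90 libraries, with cohort as a covariate, the edgeR slope per unit of score was positive and called for 16 members and negative for 4, against 17.8% and 19.8% of all genes. The median slope was 0.04 over members and -0.03 over all genes. Medians of Psme4 at scores 0, 0.5, 1, 2, 3 and 4 were 116.3, 139.9, 152.9, 165.4, 291.9 and 280.7 CPM, the last from a single library. Its slope was 0.57 ± 0.13 log2 units per unit of score (adjusted p 0.00029). Medians of Psmd4 over the same scores were 86.16, 87.66, 80.6, 132.8, 184.3 and 226.4 CPM (slope 0.51 ± 0.11, adjusted p 0.00031). Levels of Psmd4 were alike up to score 1 and higher from score 2. Medians of Psmf1 were 28.53, 31.22, 33.64, 49.08, 59.37 and 80.69 CPM (slope 0.43 ± 0.10, adjusted p 0.00044), and those of Psmd2 27.01, 29.06, 29.54, 35.07, 48.77 and 53.46 CPM (slope 0.43 ± 0.10, adjusted p 0.00073). Psme3 (0.31), Psmd8 (0.38), Psmc3 (0.27), Psmc5 (0.26) and Psma5 (0.26) also rose with score. The members that fell were the chaperones Psmg1 (-0.21 ± 0.06, adjusted p 0.0052) and Psmg2 (-0.13) and the alpha subunits Psma4 (-0.09) and Psma3 (-0.08).

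Medians of Psmb8 at scores 0 to 4 were 25.2, 22.12, 22.29, 23.27, 23.91 and 23.83 CPM, with a slope of 0.00 ± 0.03 (adjusted p 0.99). Medians of Psmb9 were 9.885, 10.05, 9.058, 9.067, 10.25 and 12.24 CPM (slope 0.02 ± 0.04, adjusted p 0.77), and those of Psmb10 5.538, 5.413, 4.848, 5.5, 5.675 and 5.244 CPM (slope 0.00 ± 0.04, adjusted p 0.96). No order by score was seen in these levels. Psmb5 (0.16 ± 0.05, adjusted p 0.014) and Psmb7 (0.13 ± 0.05, adjusted p 0.032) rose with score, and Psmb6 had a slope of -0.02 (adjusted p 0.67). Psme1 had -0.01 (adjusted p 0.71) and Psme2 0.09 (adjusted p 0.15). Cohorts 1 to 4 alone gave 21 positive and 2 negative calls, with Psme4 at 0.76 (adjusted p 0.00091). Cohorts 6 to 9 alone gave 0 by edgeR, with Psme4 at 0.39 (adjusted p 0.43); the difference between these cohorts was not tested. Erythroid markers moved with score too, 10 of 10 higher, with median summed levels of 43520, 44671, 46367, 67435, 82036 and 125990 CPM at scores 0, 0.5, 1, 2, 3 and 4. With the 3 cell list means as covariates 0 members were called by edgeR, and Psme4 had a slope of -0.11 (adjusted p 0.2). The shares of all genes called in these refits of the slope are not given here.

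At the first sampling, on days 12 to 30 (60 libraries), the score slope of 1 member was called by edgeR, against 9.94% of all genes: Psmg3 at -0.35 ± 0.12 (adjusted p 0.049), a call lost with DESeq2's size factors, without the filter and with cell marker covariates. Psme4 had 0.23 ± 0.08 (adjusted p 0.064), Psmb8 -0.18 ± 0.07 (adjusted p 0.11), Psmb10 -0.20 ± 0.09 (adjusted p 0.15) and Psmb9 -0.13 (adjusted p 0.28). DESeq2 called Psmg3 and Psme4. The slopes of the second and the first sampling were compared directly in 150 libraries, and edgeR called 0 members and 0.0% of all genes. By edgeR 7 members had an unadjusted p under 0.05 (the count over all genes is not given here), and DESeq2 called 0.

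On day 44, 50 conventional libraries were compared with 5 SPF libraries; 2 members were higher and 5 lower in conventional mice, against 9.81% and 10.2% of all genes. Psme4 had a lowest value of 76.75, a median of 168.6 and a highest value of 2656 CPM in conventional mice, against 98.44, 72.47, 71.2, 100.2 and 81.94 CPM in the SPF mice. The SPF libraries lay at the low end of the conventional range. Its log2 difference was 2.15 ± 0.75 (fold 4.423, adjusted p 0.036). The call was lost when any 1 of the 5 SPF libraries was left out (adjusted p 0.065 to 0.091), with log2 differences of 2.08 to 2.21. Psme3 had 440.8, 936.5 and 3546 CPM in conventional mice, against 565.7, 446.6, 646.0, 493.6 and 438.0 CPM in SPF mice, a log2 difference of 1.27 ± 0.41 (adjusted p 0.023). Without SPF replicate 2, 4 or 5 its adjusted p was 0.063, 0.059 or 0.063. Psmf1 (1.35 ± 0.55, adjusted p 0.071) and Psmd4 (1.25 ± 0.62, adjusted p 0.14) did not pass.

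Psmb10 was lower in conventional mice on day 44, with 2.787, 5.324 and 7.968 CPM (lowest, median, highest), against 5.533, 7.59, 9.344, 8.24 and 7.266 CPM in SPF mice. The groups overlapped, but each SPF value lay above the conventional median and 2 lay above the highest conventional value. The log2 difference was -0.54 ± 0.14 (fold 0.6883, adjusted p 0.0049), and it was called with each SPF library left out in turn (adjusted p 0.0028 to 0.045). Psmb8 had 13.78, 23.21 and 34.72 CPM in conventional mice, against 26.05, 29.03, 32.49, 33.53 and 27.9 CPM in SPF mice, a log2 difference of -0.39 ± 0.12 (fold 0.7613, adjusted p 0.019). The SPF values all lay above the conventional median. Without SPF replicate 3 or 4 its adjusted p was 0.072 or 0.08. Psmb9 had 4.938, 9.944 and 13.34 CPM in conventional mice, against 8.991, 11.78, 10.59, 11.63 and 11.04 CPM in SPF mice, and was not called (-0.15 ± 0.13, adjusted p 0.42).

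Also lower in conventional mice on day 44 were Psme1 (-0.30 ± 0.10, adjusted p 0.034) and the chaperones Psmg4 (-0.84 ± 0.28, adjusted p 0.027) and Psmg2 (-0.58 ± 0.19, adjusted p 0.025). Psmg2 had 1.228, 2.529 and 5.779 CPM in conventional mice, against 3.06, 3.495, 3.632, 5.072 and 3.774 CPM in SPF mice, so every SPF value lay above the conventional median. These calls rested on few SPF libraries: Psme1 and Psmg2 lost theirs without replicate 3, 4 or 5 (Psme1 -0.20, adjusted p 0.2, and Psmg2 -0.45, adjusted p 0.14, without replicate 4), and Psmg4 without replicate 2, 3, 4 or 5 (adjusted p 0.051 to 0.11). Psmb5 (0.23, adjusted p 0.56), Psmb6 (-0.41, adjusted p 0.062), Psmb7 (0.26, adjusted p 0.48) and Psme2 (0.11, adjusted p 0.77) did not pass. Of the B cell markers 9 of 10 were lower in conventional mice, with summed levels of 136.3 to 708.3 CPM, against 677.4 to 820.7 CPM in SPF mice. Of the erythroid markers 9 of 10 were higher, with 25927 to 245220 CPM against 27668 to 46582 CPM, and all 10 neutrophil markers were higher, with 368.8 to 15347 CPM against 400.2 to 757.3 CPM. With these 3 list means as covariates the call of Psmb10 was lost (-0.46, adjusted p 0.22), as was that of Psmb8 (-0.25, adjusted p 0.46).

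On day 16, when cohort 5 (10 libraries) was compared with the SPF cohort (5), edgeR called 0 members and 0.533% of all genes. Of 50 members 2 had an unadjusted p under 0.05 by edgeR, against 2317 of 18192 genes, and DESeq2 called 0 members. In cohort 5, from day 16 to day 44, 1 member was called, against 12.6% of all genes. This was Psmb6, which had 4.176, 6.102 and 8.359 CPM on day 44, against 5.397, 9.4 and 13.43 CPM on day 16, and fell by 0.47 on the log2 scale (SE 0.15, adjusted p 0.028). The ranges overlapped between 5.397 and 8.359 CPM, and the call was lost with cell marker or with globin and mitochondrial rRNA covariates. Psme4 had 109.5, 151.05 and 552.1 CPM on day 44, against 99.3, 113.9 and 261.0 CPM on day 16, a log2 change of 0.69 ± 0.26 (adjusted p 0.078). In the SPF cohort the same days gave 0 member calls by edgeR and 0.0% of all genes, with 2 members at an unadjusted p under 0.05. So did the test of the difference between both changes (0 members, 0.0%, 2 unadjusted), and DESeq2 called 0 members in both. The unadjusted counts over all genes are not given here for either test. In that last test Psme4 had 1.22 ± 0.45 (adjusted p 0.38). Without SPF replicate 3, whose day 16 library had the high globin share, edgeR again called 0 members on day 16, in the SPF change and in the difference of changes, where Psme4 was at 1.27 (adjusted p 0.46).

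Across the first-sampling days, before and during onset, most proteasome genes declined. The edgeR trend per 10 days over 90 libraries was negative and called for 33 members and positive for 4, against 28.3% and 24.3% of all genes. The median trend was -0.09 over members and -0.01 over all genes. Means of Psmb6 on days 2, 5, 9, 12, 16, 19, 23, 26 and 30 were 11.51, 12.05, 9.874, 8.188, 8.814, 7.952, 8.681, 7.641 and 7.881 CPM. Most of the difference lay between day 5 and day 12. The trend was -0.23 ± 0.04 log2 units per 10 days (adjusted p 4.4e-08). Means of Psmb8 were 29.57, 32.17, 27.74, 23.06, 25.82, 23.03, 25.07, 23.68 and 24.15 CPM (-0.15 ± 0.04, adjusted p 0.00034), with the same early step. Psmb10 fell too (-0.18 ± 0.04, adjusted p 0.00026), as did Psme1 (-0.15), Psme2 (-0.10), Psmb3 (-0.20), Psmb5 (-0.08, adjusted p 0.042) and the chaperone Psmg1 (-0.24 ± 0.06, adjusted p 0.00033). Psmb7 had -0.03 (adjusted p 0.12) and Psmb9 -0.05 (adjusted p 0.23).

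By class, 9 of 11 non-ATPases, 4 of 6 ATPases, 5 of 7 alpha subunits, 3 of 4 non-catalytic beta subunits and 3 of 4 chaperones of the core fell over the first-sampling days. Of all genes 28.3% fell and 24.3% rose. The members that rose were Psme4 (0.17 ± 0.04, adjusted p 0.00038), Psmf1 (0.16), Psme3 (0.12) and the ATPase Psmc6 (0.06). Medians of Psme4 were 117.4, 102.5, 132.7, 132.1, 113.9, 106.9, 145.4, 128.7 and 171.6 CPM in day order, without a steady rise and with the highest on day 30. In cohorts 1 to 4 alone (days 2 to 12) 27 members fell and 1 rose, and in cohorts 6 to 9 alone (days 19 to 30) 0 fell and 3 rose: Psme4 (0.55, adjusted p 0.031), Psmd2 (0.40, adjusted p 0.01) and Psmd8 (0.37, adjusted p 0.039). Globin and mitochondrial rRNA shares also differ between these cohorts, as given above. With both shares as covariates 14 members were called, Psmb8 was at 0.07 (adjusted p 0.21) and Psmb6 at -0.04 (adjusted p 0.55). Cell markers moved over the same days: 10 of 10 neutrophil markers rose (median 1.15 per 10 days on the log2 scale), 5 of 6 monocyte and 4 of 10 erythroid markers rose, and 8 of 10 B cell and 6 of 8 T cell markers fell. With neutrophil, B cell and erythroid markers as covariates 18 members were called, all falling, Psmb6 was at -0.16 (adjusted p 0.034), Psmb8 at -0.10 (adjusted p 0.19) and Psme4 at 0.06 (adjusted p 0.22). The shares of all genes called in these refits of the trend are not given here.

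The immunoproteasome was set against the constitutive catalytic genes as the log2 ratio of the summed TPM of Psmb8, Psmb9 and Psmb10 over that of Psmb5, Psmb6 and Psmb7. This ratio was 0.57 ± 0.347 over all 190 libraries (SD). It averaged 0.557 ± 0.441 at the second and 0.573 ± 0.238 at the first sampling, so the means differ by far less than the spread, and the spread is wider late. On day 44 it was 0.518 ± 0.549 in conventional mice and 0.711 ± 0.162 in SPF mice, which lay between 0.516 and 0.882. In cohort 5 it was 0.668 ± 0.19 on day 44 and 0.596 ± 0.202 on day 16, and in the SPF cohort 0.711 on day 44 and 0.625 on day 16. Group means ran from 0.322 (cohort 9, day 44) to 0.731 (cohort 8, day 40). As a score over chosen genes the ratio was given no test.

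**Figure D3:**
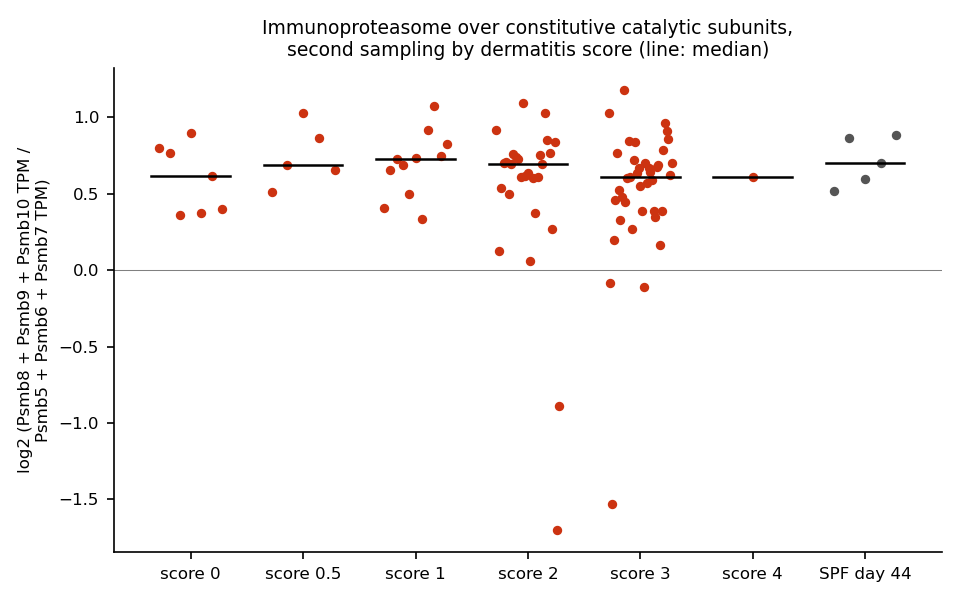
Log2 ratio of summed immunoproteasome TPM over summed constitutive catalytic TPM per library, second-sampling conventional libraries by dermatitis score (red) and the SPF cohort on day 44 (grey); lines are medians. Medians lie between 0.609 and 0.726 at every score and at 0.701 in SPF mice, and 3 libraries at scores 2 and 3 lie far below, at -0.886, -1.531 and -1.702.

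By score at the second sampling the medians of the ratio were 0.616, 0.687, 0.726, 0.692, 0.609 and 0.609. The lowest libraries were replicate 7 of cohort 9 (-1.702), replicate 4 of cohort 1 (-1.531) and replicate 10 of cohort 9 (-0.886), all of day 44. In replicate 7 of cohort 9 the immunoproteasome sum was 1.911 TPM and the constitutive sum 6.219 TPM. There Psmb8, Psmb9 and Psmb10 were at 1.032, 0.336 and 0.543 TPM, against medians of 7.515, 2.297 and 3.092 over all libraries. Psmb5, Psmb6 and Psmb7 were at 1.765, 1.614 and 2.84 TPM, against medians of 1.752, 4.34 and 2.132. The high Psmb5 and Psmb7 levels of this library given above are in CPM. Without replicate 7 of cohort 9 and replicate 4 of cohort 1 the second-sampling mean of the ratio was 0.607 ± 0.297. In the lowest libraries, in the order given, the mean log2 CPM of the erythroid genes was 12.74, 12.92 and 12.35. Over all second-sampling conventional libraries it was 10.4 ± 0.978 (SD). Replicate 4 of cohort 7 on day 44 had an erythroid mean of 12.47 and a ratio of 0.057. The part of erythroid cells in the ratio was not tested. The 3 pairs behaved unlike each other: the mean log2 ratio of Psmb8 to Psmb5 was 1.921 at the second and 2.161 at the first sampling, that of Psmb10 to Psmb7 0.314 and 0.577, and that of Psmb9 to Psmb6 -0.803 and -1.163. At the second sampling the mean ratio was thus lower for the pairs of Psmb8 and Psmb10 and higher for that of Psmb9, which the sums do not show.

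How single members followed cell markers was described after the data had been seen, over the 90 second-sampling libraries with each cohort's mean removed, on log2(CPM + 1). In all 18 relations were computed, with 100000 permutations within cohorts and Benjamini-Hochberg adjustment. Both measures of a pair come from the same library and share its total. The relations were not computed in TPM, and the unit bears on them. On day 44 the summed TPM of Psmb5, Psmb6 and Psmb7 was 3.152 in replicate 10 of cohort 9 (erythroid mean 12.35). It was 15.4 in replicate 3 of cohort 7 (erythroid mean 8.678), but 8.145 in replicate 4 of cohort 1 (erythroid mean 12.92). Psme4 followed the mean of the 10 erythroid genes with Pearson's r = 0.968 and Spearman's rho = 0.961 (permutation p 1e-05, the smallest that could be given; adjusted 3e-05). Without the 2 farthest libraries r was 0.965, and it was 0.975 in cohorts 1 to 4 and 0.969 in cohorts 6 to 9. Psmb7 (r = 0.749, rho = 0.672) and Psmb5 (r = 0.747, rho = 0.654) followed the same genes less closely (both with permutation p 1e-05 and adjusted p 3e-05; r without the 2 farthest libraries 0.715 and 0.701). Psmb8 (r = -0.254, rho = -0.236; adjusted permutation p 0.026 and 0.046) and Psmb9 (r = -0.291, rho = -0.308; adjusted permutation p 0.01 and 0.0094) ran the other way. For Psmb9 r was -0.097 in cohorts 1 to 4 and -0.529 in cohorts 6 to 9, and for Psmb8 -0.239 and -0.259. Without the 2 farthest libraries r over all cohorts was -0.176 for Psmb8 and -0.211 for Psmb9. Psmb10 had r = -0.114 (adjusted permutation p 0.33). With the mean of the B cell list Psme4 had r = -0.587 and rho = -0.636 (adjusted permutation p 3e-05 for both), and Psmb8 r = 0.26 and rho = 0.387 (adjusted permutation p 0.023 and 0.00067).

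Psmb9 followed Irf1, the transcription factor known to act on its promoter, with r = 0.591 and rho = 0.332 (adjusted permutation p 0.00044 and 0.0069). Much of this r came from few libraries, as it was 0.306 without the 2 farthest; it was 0.739 in cohorts 1 to 4 and 0.402 in cohorts 6 to 9. For Psmb8 the r with Irf1 was 0.43 and rho 0.232 (adjusted permutation p 0.0028 and 0.049), and 0.219 without those libraries. Psme4 had r = -0.208 with Irf1 (adjusted permutation p 0.097), with 0.044 in cohorts 1 to 4 and -0.554 in cohorts 6 to 9.

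**Figure D4:**
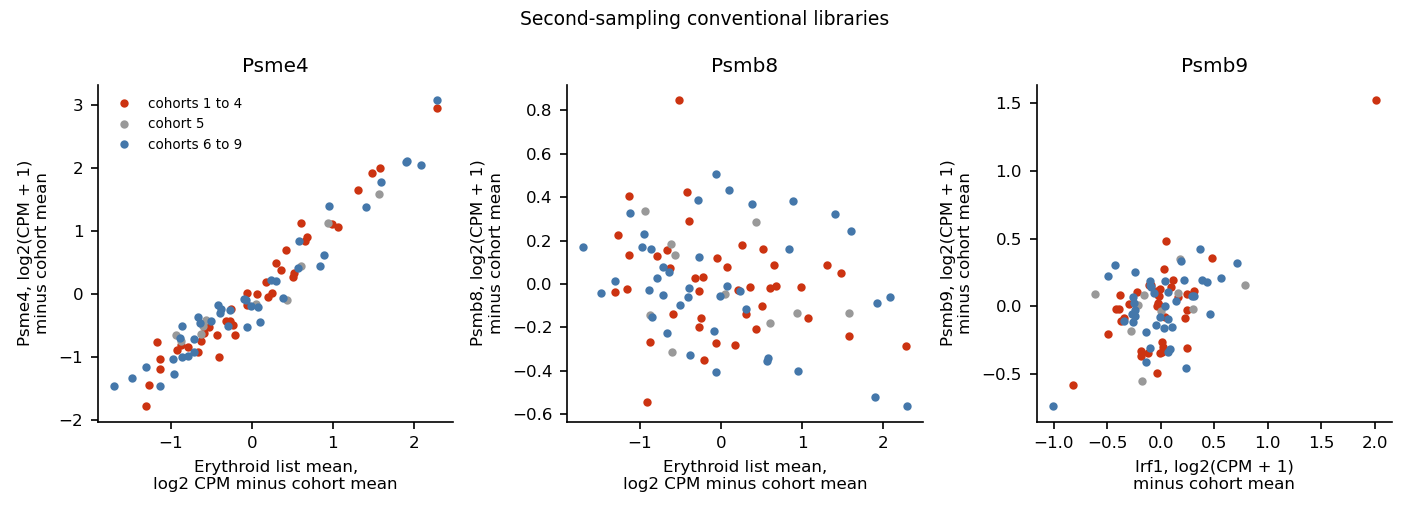
Log2(CPM + 1) of Psme4 and Psmb8 against the mean log2 CPM of 10 erythroid genes, and of Psmb9 against Irf1, in 90 second-sampling libraries, each minus its cohort mean; colours give cohorts 1 to 4, cohort 5 and cohorts 6 to 9. Psme4 follows the erythroid mean closely (r = 0.968), Psmb8 does not (r = -0.254), and a single library of cohort 2 lies far to the upper right in the Irf1 panel.

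Other genes of the pathway were read from lists. Of 22 tested partners of the proteasome and of ubiquitin, 14 rose and 3 fell at the second sampling. Of all genes 31% rose and 31.2% fell, and the median log2 change of the partners was 0.26. Uba1, the main ubiquitin-activating enzyme, was among those that rose (1.02 ± 0.11, adjusted p 2.3e-15). Rad23b (-0.21), which shuttles ubiquitinated proteins to the proteasome, and Akirin2 (-0.18), which helps bring proteasomes into the nucleus, fell. With score 11 partners rose and 3 fell, against 17.8% and 19.8% of all genes, with Uba1 at 0.46. On day 44, 7 were higher and 1 lower in conventional than in SPF mice, against 9.81% and 10.2% of all genes, with the small 19S subunit Sem1 at 1.04. With cell marker covariates Sem1 was at -0.03. Over the first-sampling days 13 partners rose and 5 fell, against 24.3% and 28.3% of all genes. Nfe2l2 (0.31 per 10 days) and Zfand5 (0.25) were among the partners that rose, and the ubiquitin receptor Adrm1 (-0.13) among those that fell. Adrm1 was at 0.01 with globin and mitochondrial rRNA covariates and at 0.02 in cohorts 6 to 9 alone.

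Among 10 genes of class I peptide loading 5 rose and 1 fell at the second sampling, against 31% and 31.2% of all genes. Calr, a chaperone of the loading complex, was at 0.44, H2-D1 at 0.30 and the trimming peptidase Erap1 at -0.17. On day 44, 0 of these class I genes were higher and 1 was lower in conventional mice, the peptide transporter gene Tap2 (-0.52). Of all genes, 9.81% were higher and 10.2% lower on that day. Among 15 interferon regulators and targets 13 rose and 1 fell at the second sampling, against 31% and 31.2% of all genes. Isg15 was at 1.88 ± 0.19 (edgeR adjusted p 2.4e-17), Oasl2 at 1.56 ± 0.14 (edgeR adjusted p 9.6e-20) and Irf8 at -0.35. On day 44, 8 of these 15 were higher in conventional mice and 1 lower (Isg15 3.02, Oasl2 2.07, Irf8 -0.74), while 0 of the 3 immunoproteasome genes were higher and 2 were lower. With cell marker covariates Isg15 was at -0.33, Oasl2 at 0.19 and Irf8 at -0.11. Over the first-sampling days 14 interferon genes rose and 1 fell (Oasl2 1.07 and Irf8 -0.24 per 10 days), while 0 of the 3 immunoproteasome genes rose and 2 fell. Of all genes 24.3% rose and 28.3% fell over these days.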

How the data were processed

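Stranded total-RNA libraries depleted of ribosomal and globin RNA were made from tail-vein blood, per the labels' protocols, and reads were processed with DRAGEN on GRCm39, per the submitters' processing notes, with no version or annotation release given in the sources used here. The authors deposited 1 table of expected counts and 1 of TPM per gene. Library names in the labels assigned each column its sample, with 0 columns unmapped. Expected counts were rounded to whole numbers (2.86% were not whole). The low-count filter filterByExpr (20 groups, min.count 10, min.total.count 15) kept 18192 genes. CPM are the counts divided by TMM-scaled library sizes and brought to a common size (edgeR's cpm). Tests were two-sided edgeR 4.0.16 quasi-likelihood tests (R 4.3.3, limma 3.58.1, robust fit) with Benjamini-Hochberg adjustment over all genes tested and a threshold of 0.05; log2 values carry standard errors (SE) from the same fit. Alternatives were DESeq2 1.42.0, its size factors in edgeR, no filter (34506 genes), covariates for cell markers (means of the neutrophil, B cell and erythroid lists) or for globin and mitochondrial rRNA shares, a replicate block, each SPF library left out in turn, and cohorts 1 to 4 or 6 to 9 alone.

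Members and lists were chosen with earlier results of these data known. The relations to erythroid, B cell and Irf1 levels (pseudocount of 1 CPM) and the fits without 2 libraries were chosen after the data were seen. Named in each comparison were Psmb5 to Psmb10, Psme1 and Psme2, up to 4 called rises and 4 called falls of largest size, and up to 2 of each per pathway list (some of these list genes are not reported here); other members named with a subunit class were chosen after their values were seen. P-values take each library as independent, although cohorts were sampled on both occasions, and measure the spread between libraries, not between cohorts. Depth limits the genes of a few CPM most, and counting error is part of their spread. Promoters came from RefSeq (GRCm38.p6), whose coordinates were not joined to those of the count table.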

Additional observations from a re-analysis of the deposited data

Results flagged for a closer look

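Single libraries far from the rest of their group were sought by Dixon's rule in 10 measures over the 20 groups. Of 200 tests 42 pointed to a library, where the nominal rate is about 1 in 20. The measures share libraries and some libraries were flagged in several, so the 42 are not read as an excess over chance. Psme4 stood out at the high end in 9 groups, in CPM: 2078 in replicate 4 of cohort 1 on day 44, 2656 in replicate 7 of cohort 9 on day 44, 1100 in replicate 7 of cohort 4 on day 40, 504 in replicate 6 of cohort 3 on day 44, 393.7 in replicate 1 of cohort 8 on day 40, 261 in replicate 2 of cohort 5 on day 16, 227.8 in replicate 1 of cohort 8 on day 26, 225.6 in replicate 6 of cohort 7 on day 23 and 201.3 in replicate 4 of cohort 1 on day 2. Replicate 4 of cohort 1 on day 44 was also high in Psmb5 (14.32 CPM), Psmb7 (40.64 CPM) and Psme2 (59.21 CPM) and low in the immunoproteasome to constitutive ratio (log2 -1.531). Replicate 7 of cohort 9 on day 44 was high in Psmb7 (41.58 CPM) and Psme2 (61.88 CPM). Replicate 7 of cohort 4 on day 40 was high in Psmb7 (21.09 CPM), Psme1 (22.37 CPM) and Psme2 (37.97 CPM) and low in the ratio (-0.1137).

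The ratio was also low in replicate 3 of cohort 2 on day 5 (0.1122) and replicate 6 of cohort 3 on day 44 (0.2664). Replicate 8 of cohort 2 on day 40 was high in Psmb8 (44.74 CPM), Psmb9 (31.39 CPM) and Psme1 (27.09 CPM). Replicate 7 of cohort 7 on day 23 was high in Psmb8 (49.29 CPM), Psmb9 (14.44 CPM) and Psmb10 (12.75 CPM). Replicate 2 of cohort 9 on day 30 was high in Psmb9 (17.26 CPM), Psme1 (23.66 CPM) and Psme2 (24.25 CPM), and replicate 6 of cohort 1 on day 2 in Psmb9 (13.26 CPM) and Psmb10 (11.57 CPM). Replicate 8 of cohort 9 on day 30 was high in Psmb6 (13.15 CPM) and Psmb10 (7.589 CPM). This library had 0.728% globin and 3.536% mitochondrial rRNA, against 6.152% to 10.56% and 13.13% to 22.08% in the others of its group. Replicate 7 of cohort 7 on day 23 was likewise below the others of its group in both shares.

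Single high values were Psmb5 at 5.249 CPM in replicate 1 of cohort 6 on day 40, Psmb7 at 12.3 CPM in SPF replicate 5 on day 16, Psme1 at 24.82 CPM in SPF replicate 4 on day 44 and Psme2 at 28.04 CPM in replicate 6 of cohort 7 on day 44. Single low values were Psmb7 at 6.792 CPM in replicate 7 and Psme1 at 9.765 CPM in replicate 3 of cohort 6 on day 19, Psmb10 at 2.787 CPM in replicate 10 of cohort 7 on day 44 and Psmb10 at 2.689 CPM in replicate 1 of cohort 8 on day 26.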

How the results depend on the processing

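Counts of called members stayed within 1.5 times the reported count in 68 refits and moved farther in 23. Counts in refits are not set against the share of all genes called in the same refit. Values of single genes kept direction and side of the threshold in 1120 refits; 216 lost the call, 7 gained it and 34 turned sign. With cell marker covariates the counts were 0 in the change of cohort 5, 1 on day 44, 18 in the trend, 1 at the second against the first sampling, and 0 in both score slopes; the cause was not tested. There the turned values were, on day 44, Sem1 -0.025, Rad23b 0.002 and Isg15 -0.330; at the second against the first sampling, Psmb5 -0.107, Psmb7 -0.004, Psme2 -0.031, Psmd2 -0.035, Psmd4 -0.245, Psmg2 0.003 and Erap1 0.005; and in the late score slope, Psmb5 -0.043, Psmb7 -0.056, Psme4 -0.110, Psmd4 -0.012, Psmf1 -0.045, Psmd2 -0.050, Psmg2 0.000, Erap1 0.003, Rsad2 -0.036 and Irf8 0.028. With globin and mitochondrial rRNA shares the counts were 0 in cohort 5, 14 in the trend and 9 in the late slope, and the trends of Psmb5 (0.023), Psmb8 (0.066), Psmb10 (0.061), Psmc6 (-0.061), Psmc3ip (0.015), Psmb3 (0.008) and Adrm1 (0.010) turned. In cohorts 6 to 9 alone, with fewer libraries, the counts were 3 in the trend, 15 at the second against the first sampling and 0 in the late slope, and the trends of Psmb5 (0.324), Psmb8 (0.025), Psme2 (0.123), Psmc6 (-0.085), Psmb3 (0.124), Adrm1 (0.018) and Tap2 (0.078) turned. DESeq2 called 3 members in cohort 5 and 2 in the first-sampling slope; its size factors gave 2 and 0, and no filter gave 0 in the first-sampling slope. Leaving out SPF libraries gave 1 to 6 calls on day 44. Replicate numbers were not found to pair libraries (95 pairs, r from -0.152 to 0.3, median 0.016, 16 over 0.1, 15 best with their own number); with a replicate block 1 member was called in cohort 5, 3 on day 44, 35 in the trend, 32 at the second against the first sampling, 15 in the late slope and 0 in the first-sampling slope. As a difference of mean log2 CPM the immunoproteasome contrast was 0.882 and 0.955 in SPF mice on days 16 and 44, 0.720 in cohort 1 on day 2 and 0.853 in cohort 2 on day 5, beyond 1 SD of the TPM ratio. Genes near 1 CPM, such as Psmg1 and Psmg4, rest on the fewest reads.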

Other observations

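Psmb9 and interferon targets were high together in 2 libraries of mice with dermatitis. In replicate 8 of cohort 2 on day 40 (score 3) Psmb9 was at 31.39 CPM, against 6.538 to 11.55 CPM in the other 9 libraries of its group. The same library had 182.1 CPM of Irf1, a transcription factor of the interferon response (24.76 to 55.43 in the others) and 498.2 CPM of the interferon-gamma target Gbp2 (16.53 to 80.19). In replicate 2 of cohort 9 on day 30 (score 2) Psmb9 was at 17.26 CPM (6.177 to 11.35 in the others), Irf1 at 112.5 CPM (25.46 to 45.5) and Gbp2 at 191.6 CPM (23.58 to 35.33), while Psmb8, at 30.37 CPM (17.25 to 35.86), and Psmb10, at 5.957 CPM (4.442 to 7.589), were within the range of the others. In replicate 7 of cohort 7 on day 23 (score 0) Psmb8 was at 49.29 CPM (18.08 to 30.27 in the others) and Psmb10 at 12.75 CPM (3.867 to 7.745), while Irf1, at 59.18 CPM, was closer to the others (21.46 to 48.3). Replicate 7 of cohort 7 on day 23 also had 0.96% globin and 3.853% mitochondrial rRNA. In the others of its group these shares were 2.398% to 11.36% and 8.22% to 17.61%. The part of this difference in its levels was not tested. The libraries described here were picked for their Psmb8 or Psmb9 values, so the values are a description of single libraries.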
